A study of Homo sapiens with 6 samples.

Results

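The genes described here encode *ADAM10*, 3 related membrane sheddases (*ADAM9*, *ADAM15* and *ADAM17*) and 5 subunits of gamma-secretase (*PSEN2*, *NCSTN*, *APH1A*, *APH1B* and *PSENEN*). They are 9 of the 28395 genes counted in H146 cells, and all 9 passed the filter on low counts. *ADAM10* was picked because its level fell in these same libraries, so its values are given as a description with no test. The other 8 were added for their relation to it. H146 (NCI-H146) is an established small-cell lung cancer (SCLC) cell line, and the labels give the control cells as wild type. Cells were transfected with siKIFC1 #2, an siRNA against the mitotic kinesin *KIFC1*, or with a scrambled control siRNA, and RNA was taken on day 2 from 3 libraries per group. Only this siRNA was sequenced, so loss of *KIFC1* and any other action of its sequence cannot be told apart.

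Sheddases of the ADAM family are zinc metalloproteases anchored in the membrane, which cut the extracellular part of other membrane proteins close to the cell surface. The stub that remains can then be cut within the membrane by gamma-secretase, a complex of a presenilin, nicastrin, APH1 and PEN-2. In Notch signaling, a pathway that restrains the neuroendocrine state in SCLC, ADAM10 makes the cut that ligand binding triggers, and gamma-secretase releases the intracellular domain.

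The 7-base word GAGATCT, present in 1 copy in the *KIFC1* transcript, was looked for on the sense strand of the Ensembl canonical transcript of each gene in GENCODE 44. It is shown because an earlier scan of these libraries had linked it with lower genes, and its presence here is not independent evidence. Of the 9 transcripts, those of *ADAM10* and *ADAM17* held it, 1 copy each. The sequence of the siRNA is not given in the sources used here, so its target site in *KIFC1* is not known. The *KIFC1* window is printed for comparison of letters and not as that site. The windows below are from GRCh38, printed 5′ to 3′ on the strand of the gene, with the word in capitals.
KIFC1, coding sequence, chr6:33405471-33405499, plus strand: caagctacgtaGAGATCTacaatgagact
ADAM10, 3′ UTR, chr15:58595542-58595570, minus strand: tcaagacaaatGAGATCTaatactactgt
ADAM17, coding sequence, chr2:9543193-9543221, minus strand: ggtaagaaaaaGAGATCTacagacttcaa
The *ADAM10* word begins at base 1988 of a 3′ UTR of 8738 bases. Around the word, *ADAM10* shared an unbroken run of 8 bases with *KIFC1*, and *ADAM17* a run of 11 bases. Of 12969 tested genes with a 3′ UTR of 50 bases or more, 1163 had the word in it (8.97%), with a median log2 fold change of -0.11, against 0.02 for genes without it. Of the 9 genes, *ADAM10* alone had it in the canonical 3′ UTR, and *ADAM17* and *PSEN2* had it in other annotated 3′ UTRs. The canonical 3′ UTR of *ADAM10* is also the longest of the 9, against 273 to 3345 bases for the other 8. A longer stretch has more room for any 7-base word, and the share of 8.97% is over UTRs of all these lengths. A match in these letters is a description and not evidence of binding.

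*KIFC1*, the targeted gene, had 14, 4 and 14 counts with control siRNA against 1, 1 and 0 with siKIFC1 #2. The groups did not overlap, and the adjusted p was 0.0739 in edgeR, just over the threshold of 0.05, and from 0.00412 to 0.370 over the alternatives. Of the 32-base words within exons of the *KIFC1* transcript, 100% also occur on alternate sequences of GRCh38, and the part of reads that map to several places in these low counts was not tested. The sources used here do not say whether those sequences were in the authors' index. Total counts per library ran from 15392374 to 17754458. The neuroendocrine markers *INSM1*, *SYP*, *NCAM1*, *DLL3* and *GRP* were present in every library, and *CHGA* had 104 to 147 counts with control siRNA against 145, 818 and 482 with siKIFC1 #2. *NEUROD1*, *POU2F3* and *YAP1*, each a marker of an SCLC subtype, had at most 7 counts in any library. Among markers of other cell types, *SFTPC*, *DCN*, *CD3E*, *PECAM1* and *CDH5* had at most 7 counts and *KRT5* at most 10, whereas *COL1A1*, the other fibroblast marker, had 28 to 59. With control siRNA *TP63* averaged 24.1 and *PTPRC* 2.29 CPM. CPM here is a gene's counts per 1000000 counts of its library, after the TMM scaling described below. In a culture, fewer cells with a transcript and less RNA per cell cannot be told apart.

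*ADAM10* (NCBI gene ID 102, chromosome 15 of GRCh38, 58588809 to 58749707) was chosen for its fall. It had 1189, 1134 and 1473 counts with control siRNA against 521, 456 and 650 with siKIFC1 #2. In CPM scaled by edgeR's TMM method, which corrects for library size and composition, these were 71.4, 71.0 and 80.2 against 33.3, 30.0 and 39.8. Every siKIFC1 #2 library was far below every control library. The mean was 74.2 ± 5.22 CPM (SD, n = 3) in control cells and 34.4 ± 4.98 CPM (SD, n = 3) in siKIFC1 #2 cells, or 46.3% of control. The log2 fold change of the fit was -1.11 (SE 0.13). Libraries with the same replicate number differed by -1.10, -1.24 and -1.01 on the log2 scale. Fits that omitted a single library gave log2 fold changes from -1.23 to -1.03. Of the 14777 genes tested, *ADAM10* had the 31st most negative log2 fold change, which places the gene by the measure it was chosen on.

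**Figure D1:**
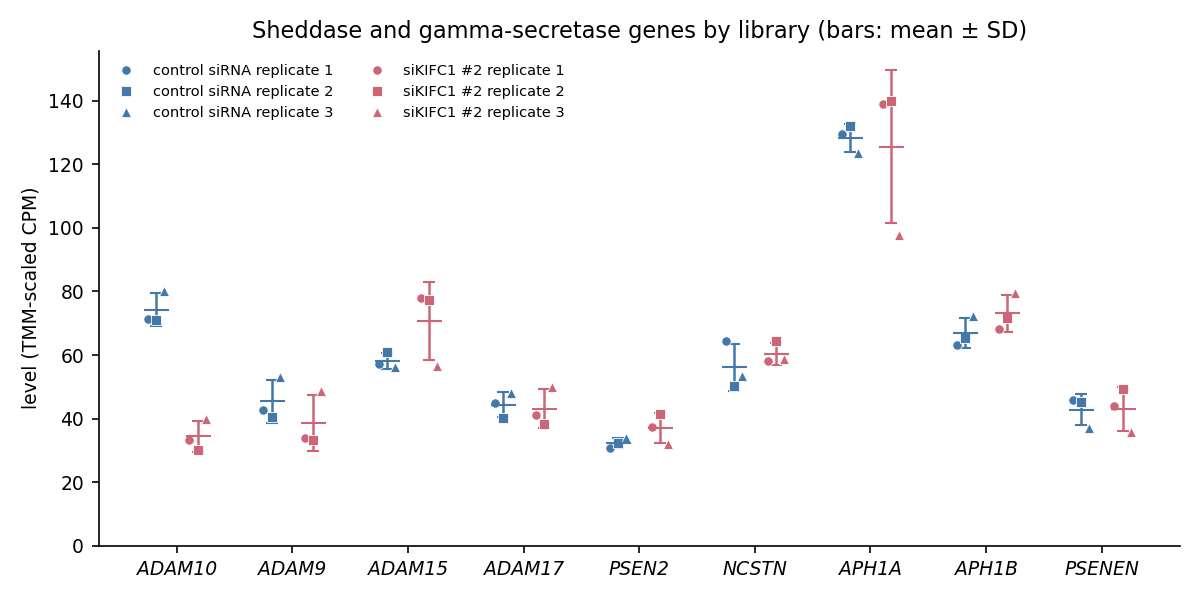
Level of each gene in every library, in TMM-scaled CPM on an axis that starts at 0, with control siRNA in blue and siKIFC1 #2 in red; symbols mark replicate numbers and bars the mean ± SD of 3 libraries. The siKIFC1 #2 libraries of *ADAM10* lie between 30.0 and 39.8 CPM, below the control libraries at 71.0 to 80.2, and the groups of the other 8 genes overlap.

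The other sheddases differed less between the groups, and none of them passed the test. The test was edgeR's quasi-likelihood fit, with p adjusted by Benjamini-Hochberg over every gene in it and a threshold of 0.05, which 0.697% of the 14777 genes passed in either direction. Of the 8 members beside *ADAM10*, 0 passed it in edgeR, and 0 with DESeq2, with limma-voom or at an unadjusted p under 0.05. The 2 groups did not overlap in CPM for 15.5% of all tested genes (7.52% lower and 7.99% higher with siKIFC1 #2) and for 0 of these 8.

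*ADAM17* (chromosome 2, 9488486 to 9555830) encodes the sheddase that releases tumor necrosis factor and ligands of the EGF receptor, and is the closest relative of *ADAM10* in the family. Its levels were 45.0, 40.1 and 48.1 CPM with control siRNA and 41.1, 38.3 and 49.96 CPM with siKIFC1 #2. The groups covered the same range. The log2 fold change was -0.04 (95% interval -0.33 to 0.24, adjusted p = 0.967 in edgeR), so a fall below 0.798 times the control level lay outside the interval. *ADAM9* (chromosome 8, 38996973 to 39105261), a broadly expressed sheddase, had 42.6, 40.4 and 53.1 CPM with control siRNA and 33.8, 33.3 and 48.6 CPM with siKIFC1 #2. Each siKIFC1 #2 library was below the control library of the same number, by -0.33, -0.28 and -0.13 on the log2 scale, while the groups overlapped. The fitted log2 fold change was -0.23 (95% interval -0.59 to 0.12, adjusted p = 0.765 in edgeR). It depended on replicate 3: without siKIFC1 #2 replicate 3 it was -0.44, with an adjusted p of 0.0689 in edgeR, and without control replicate 3 it was -0.10, with the adjusted p between 0.0689 and 1.00 over all the alternatives. Of the 32-base words of the *ADAM9* transcript, 48.4% also occur on the alternate sequences, against at most 4.40% for the other 8 members.

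*ADAM15* (chromosome 1, 155051316 to 155062775), whose product also binds integrins, was the sheddase with a positive estimate. Control libraries had 57.1, 61.0 and 56.3 CPM, and siKIFC1 #2 libraries 77.8, 77.5 and 56.4 CPM. Replicates 1 and 2 with siKIFC1 #2 were above every control library, and replicate 3 was within the control range. The log2 fold change was 0.28 (95% interval -0.01 to 0.57, adjusted p = 0.565 in edgeR). Without siKIFC1 #2 replicate 3 it was 0.42, with an adjusted p of 0.0230 in edgeR, and over all the alternatives the adjusted p ranged from there to 1.00. Calls over all genes also rose when that library was left out, to the most of any single omission, as given below.

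None of the 5 gamma-secretase genes passed the test. *NCSTN* (chromosome 1, 160343383 to 160358949) encodes nicastrin, the subunit that receives the cut substrate. It had 64.5, 50.4 and 53.3 CPM with control siRNA and 58.2, 64.3 and 58.6 CPM with siKIFC1 #2. Its log2 fold change was 0.11 (95% interval -0.16 to 0.37, adjusted p = 0.886 in edgeR). *PSEN2* (chromosome 1, 226870616 to 226903668) encodes presenilin-2, a catalytic subunit. Its levels were 30.8, 32.3 and 34.0 CPM with control siRNA and 37.5, 41.3 and 32.02 CPM with siKIFC1 #2. The log2 fold change was 0.19 (95% interval -0.08 to 0.46, adjusted p = 0.738 in edgeR). Replicates 1 and 2 were above all control libraries and replicate 3 was not, as for *ADAM15*.

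*APH1A* and *APH1B* encode alternative scaffold subunits, and a complex holds either of them. *APH1A* (chromosome 1, 150265404 to 150269016) had 129, 132 and 124 CPM with control siRNA and 139, 139.9 and 97.7 CPM with siKIFC1 #2, so that the siKIFC1 #2 libraries lay on both sides of the control libraries. *APH1B* (chromosome 15, 63277605 to 63309126) had 63.3, 65.3 and 72.3 CPM with control siRNA and 68.1, 71.7 and 79.6 CPM with siKIFC1 #2. In each numbered pair *APH1B* was higher with siKIFC1 #2, by 0.11, 0.13 and 0.14 on the log2 scale. The fitted log2 fold changes were -0.03 for *APH1A* (95% interval -0.33 to 0.27, adjusted p = 0.980 in edgeR) and 0.13 for *APH1B* (95% interval -0.11 to 0.37, adjusted p = 0.823 in edgeR). *PSENEN* (chromosome 19, 35745651 to 35747519) encodes PEN-2, the subunit needed for presenilin to mature. It had 46.0, 45.1 and 37.1 CPM with control siRNA and 43.8, 49.3 and 35.8 CPM with siKIFC1 #2, with a log2 fold change of 0.01 (95% interval -0.30 to 0.31, adjusted p = 0.996 in edgeR). Over the 5 subunits, the intervals excluded a fall below 0.795 times and a rise above 1.37 times the control level.

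**Figure D2:**
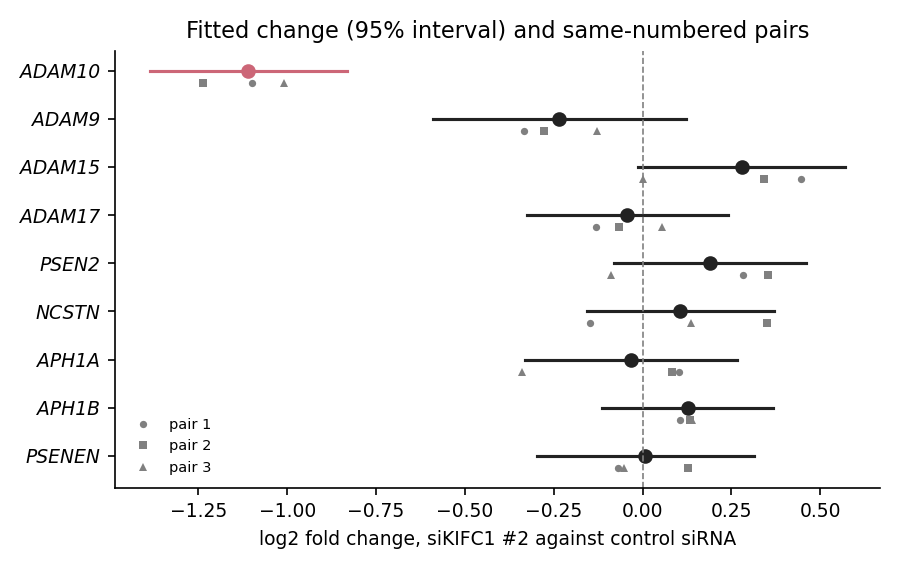
Fitted log2 fold change of siKIFC1 #2 against control siRNA for each gene (large point) with its 95% interval (line), and below it in grey the log2 difference of each same-numbered pair of libraries. *ADAM10*, in red, lies at -1.11. Its line takes no account of its choice for its fall and is not to be read as a test. The intervals of the other 8 genes include 0.

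Some of these counts share sequence with neighbors. In GENCODE 44, exons of another gene on the same strand overlap 38.7% of the exonic bases of *PSEN2*, 21.0% of those of *PSENEN* and 4.65% of those of *ADAM15*. Exons on the opposite strand overlap 31.3% of *PSENEN*, 14.1% of *APH1A*, 11.7% of *ADAM17*, 1.64% of *NCSTN*, 0.851% of *ADAM10* and 0.401% of *ADAM9*. The strand setting of the counting is not given in the sources used here.

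To compare levels between genes, CPM was divided by the length of the canonical transcript. In control cells *APH1A* stood highest of the 9 at 74.2 ± 2.56 CPM per kilobase (SD, n = 3), followed by *PSENEN* at 38.0 ± 4.37 (SD, n = 3). *NCSTN* at 19.9 and *ADAM15* at 19.8 CPM per kilobase overlapped between libraries and are not ordered. *APH1B* at 16.2 and *PSEN2* at 14.4 CPM per kilobase were each separated from their neighbors. *ADAM9* at 11.04 and *ADAM17* at 10.1 CPM per kilobase overlapped. *ADAM10* was lowest at 6.65 ± 0.468 CPM per kilobase (SD, n = 3), and its canonical transcript of 11158 bases is the longest of the 9. Before the division by length, its control mean of 74.2 CPM was below only that of *APH1A*, at 128 CPM. With siKIFC1 #2 *ADAM10* was at 3.08 ± 0.446 CPM per kilobase (SD, n = 3), and its libraries were again below those of every other member. *ADAM10* made up 13.8%, 13.8% and 14.3% of the summed level per length of the 4 sheddases in the control libraries. In the siKIFC1 #2 libraries it made up 6.33%, 5.87% and 7.76%. *ADAM15* had the largest share in every library, from 38.2% to 45.1% with control siRNA and from 41.8% to 57.5% with siKIFC1 #2. With the union of all annotated exons as the length, *ADAM10* ranked 6th of the 9 in control cells at 4.64 CPM per kilobase, and *PSEN2* was lowest at 1.97. On that length *ADAM10* made up 24.3%, 24.0% and 25.6% of the 4 sheddases in the control libraries, second to *ADAM15*, and 11.3%, 10.5% and 14.7% in the siKIFC1 #2 libraries. The order of the lower genes and the size of this share thus depend on the transcript model. With either length, the lower share with siKIFC1 #2 restates the fall for which *ADAM10* was chosen. It is not separate evidence.

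**Figure D3:**
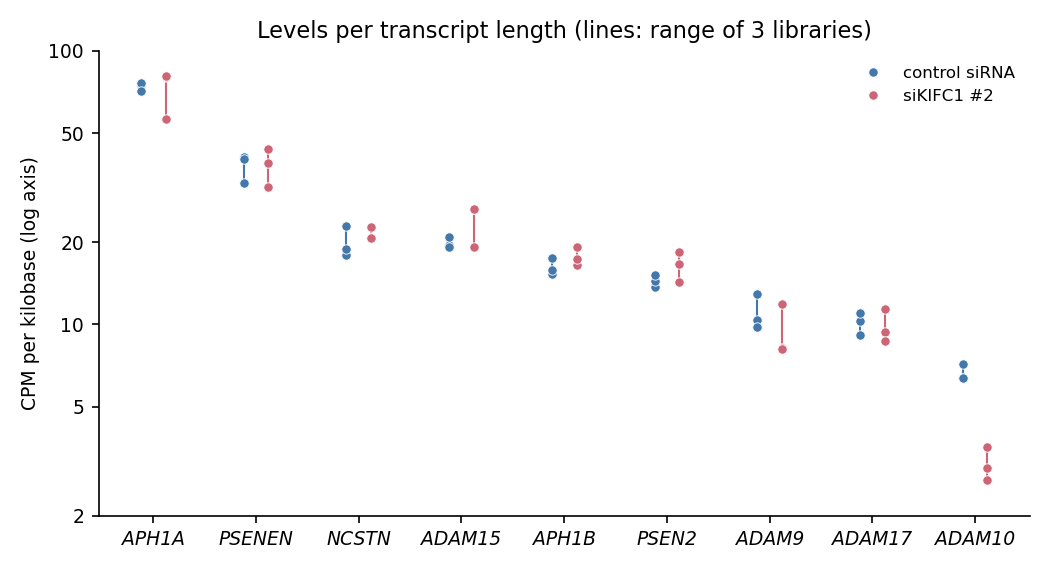
CPM per kilobase of canonical transcript on a log axis, with genes ordered by their control mean, points for the 3 libraries of each group and lines for their range. *APH1A* is highest at 74.2 and *ADAM10* lowest at 6.65 with control siRNA, and the *ADAM10* points with siKIFC1 #2 lie apart at 2.69 to 3.57.

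Several members had their highest or lowest level in the same replicate number of both groups. *ADAM10*, *ADAM9*, *ADAM17* and *APH1B* were highest in replicate 3 of both groups. *ADAM9*, for example, was at 117% of its group mean in control replicate 3 and at 126% in siKIFC1 #2 replicate 3. *ADAM15*, *APH1A* and *PSENEN* were lowest in replicate 3 of both groups, with *PSENEN* at 86.8% and 83.2% of its group means. *NCSTN* and *PSEN2* followed neither order. The first pattern was found in 22.1% of all tested genes and the second in 21.8%. Mitochondrial genes took 8.37% of the counts in control replicate 3 and 9.20% in siKIFC1 #2 replicate 3, against 8.34% to 13.1% in the other libraries, and the part of RNA quality or handling in this pattern was not tested.

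**Figure D4:**
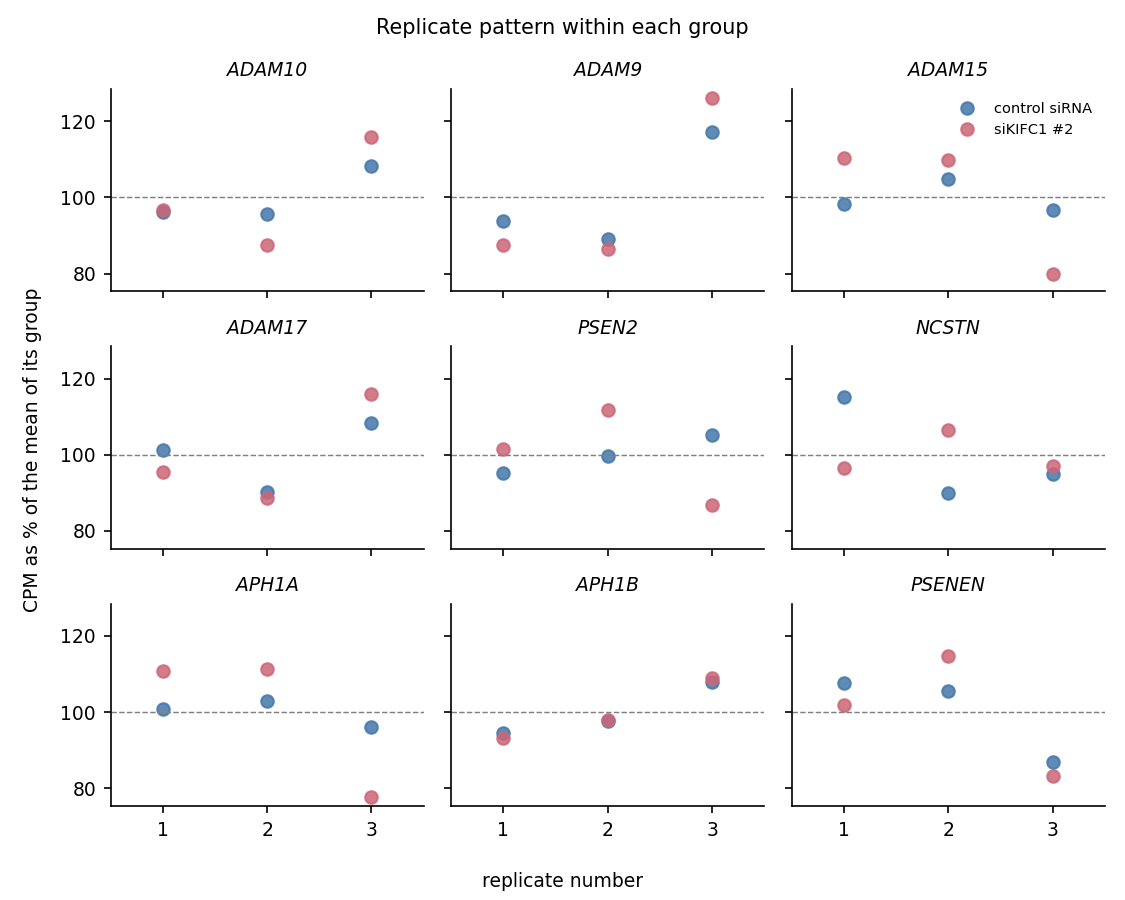
Level of each gene in each library as a percentage of the mean of its own group, by replicate number, with control siRNA in blue and siKIFC1 #2 in red. *ADAM9* is at 117% and 126% in replicate 3 of the groups, and *PSENEN* at 86.8% and 83.2%.

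Genes whose log2 CPM followed *ADAM10* most closely over the 6 libraries, among 11803 genes with a mean log2 CPM of at least 2, were *TMEM30B*, *SMG6*, *CLCN5*, *ADD1* and *SUSD1*. Their Pearson correlations with *ADAM10* were 0.998, 0.998, 0.997, 0.996 and 0.996, given as a description since the ranking picks genes that differ between the groups. Changes differed widely in size among them. *CLCN5*, a chloride transporter gene, had 443, 390 and 515 counts with control siRNA against 185, 163 and 218 with siKIFC1 #2, with a log2 fold change of -1.14. *TMEM30B*, which encodes a subunit of lipid flippases, had a log2 fold change of -0.67. *SUSD1* was at -0.68, *SMG6*, an endonuclease gene of nonsense-mediated decay, at -0.27, and *ADD1*, which encodes a membrane skeleton protein, at -0.16. GAGATCT occurs in the canonical 3′ UTR of *CLCN5* (2 copies) and *TMEM30B* (1 copy), and 0 times in those of the other 3 genes. Over the 12969 tested genes given above, the share with the word was 8.97%. Those of *CLCN5* and *TMEM30B* are also the longest, at 7011 and 2722 bases, against 709 to 1649 bases for the other 3. An earlier scan of these libraries had linked the word with lower genes, and the ranking also picks by the fall. Its presence here is therefore not independent evidence.

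Genes around the members were read from 8 hand-written lists of 114 genes, of which 88 were tested. The edgeR test called 0 of the 88 higher and 0 lower, against 0.325% and 0.372% of all genes tested. At an unadjusted p under 0.05 in edgeR there were 11 of the 88, against 9.26% of all genes tested. At the adjusted threshold limma-voom called 0, and DESeq2 called 1 higher and 3 lower. The DESeq2 calls over all genes are given below. When replicate numbers entered the edgeR fit as a block, 1 of the 88 was higher and 6 were lower, against 2.75% and 3.07% of all genes. In CPM the groups did not overlap for 9 of the 88 on the lower and 5 on the higher side. Over all genes tested the shares were 7.52% and 7.99%. The median log2 fold change of the 88 was -0.02, and that of all genes tested 0.01. GAGATCT was present in the 3′ UTR of 8 of the 88 (9.09%), against 8.97% of the 12969 tested genes given above. Of these 8, 6 had a negative log2 fold change (*TSPAN17*, *RHBDD1*, *NCAM1*, *NLGN3*, *DCC* and *ROBO1*), as did 45 of the 88. *SPPL2A* and *ERBB4* had positive ones, of 0.19 and 0.09. An earlier scan of these libraries had linked the word with lower genes, so these signs are not independent evidence.

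None of the tested partners of ADAM10 passed the test. TspanC8 tetraspanins escort ADAM10 out of the endoplasmic reticulum, and the proprotein convertases furin and PCSK7 remove its inhibitory prodomain. Of these 8 genes 6 were tested, with log2 fold changes between -0.20 and 0.21, a median of 0.03 and 0 at an unadjusted p under 0.05. *TSPAN14* had 44.1 ± 1.88 CPM with control siRNA and 48.0 ± 4.49 CPM with siKIFC1 #2 (SD, n = 3), and *PCSK7* 56.0 ± 4.01 and 53.5 ± 8.34 CPM (SD, n = 3). *FURIN* had 19.96 ± 2.13 and 23.1 ± 2.34 CPM (SD, n = 3). *TSPAN17*, whose 3′ UTR holds 1 copy of GAGATCT, had 28.2 ± 2.29 and 24.6 ± 4.11 CPM (SD, n = 3).

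The 4 partners of ADAM17, among them the inactive rhomboids that carry it to the surface, had log2 fold changes from -0.23 to -0.06, a median of -0.14 and 0 genes at an unadjusted p under 0.05. *PACS2*, a trafficking adaptor, was at 185 CPM in control cells and 163 CPM with siKIFC1 #2, and *FRMD8*, which stabilizes the inactive rhomboids, at 56.9 and 53.3 CPM. Of the 6 inhibitors of metalloproteases 3 were tested, with a median of -0.10. *TIMP2* had 128, 125 and 139.7 CPM with control siRNA and 113.8, 113.9 and 114.3 CPM with siKIFC1 #2. Its groups did not overlap, as in 15.5% of all genes tested, and its log2 fold change of -0.20 had an adjusted p of 0.577 in edgeR. *TIMP1* was lower in level, at 6.76 ± 0.215 and 7.60 ± 2.25 CPM (SD, n = 3).

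Of the 11 other ADAM genes 5 were tested, with a median log2 fold change of 0.02 and 0 at an unadjusted p under 0.05. *ADAM22*, a neuronal receptor without protease activity, had the highest level of the 5, at 62.6 ± 11.9 CPM with control siRNA and 57.4 ± 12.3 CPM with siKIFC1 #2 (SD, n = 3), and *ADAM12* had 8.91 ± 1.55 and 9.87 ± 1.81 CPM (SD, n = 3).

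The other proteases that cut ectodomains had the lowest median of the 8 lists, at -0.27 over the 7 tested. Of these 7, 4 had an unadjusted p under 0.05 in edgeR, against 9.26% of all genes tested, and 0 passed the adjusted threshold. The beta-secretase gene *BACE1* had 63.2, 67.99 and 68.5 CPM with control siRNA and 54.9, 55.9 and 55.3 CPM with siKIFC1 #2. Its paralog *BACE2* had 15.7, 14.3 and 15.4 CPM with control siRNA and 21.1, 17.6 and 19.7 CPM with siKIFC1 #2. In neither gene did the groups overlap, with *BACE1* on the lower and *BACE2* on the higher side, as in 15.5% of all genes tested. Their log2 fold changes of -0.27 and 0.36 had adjusted p of 0.399 and 0.357 in edgeR. The membrane-type metalloprotease gene *MMP24* had 37.9 ± 3.13 and 31.1 ± 0.740 CPM (SD, n = 3), with an adjusted p of 0.437 in edgeR. *MMP16* had 288, 241 and 427 counts with control siRNA against 176, 152 and 261 with siKIFC1 #2, or -0.58 on the log2 scale (adjusted p = 0.339 in edgeR). When replicate numbers were a block, its adjusted p was 0.00283 in edgeR, without siKIFC1 #2 replicate 3 it was 0.0218, and over the alternatives it reached 1.00. Both of these settings also raised the calls over all genes, as given below.

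The 10 other intramembrane proteases had a median log2 fold change of 0.09 and the 6 genes for gamma-secretase assembly and modifiers one of 0.05. In both lists 0 genes had an unadjusted p under 0.05. *HM13*, the signal peptide peptidase gene, was at 194 ± 9.30 and 207 ± 37.0 CPM (SD, n = 3) and *PARL*, the rhomboid protease of mitochondria, at 83.8 ± 9.60 and 93.6 ± 9.18 CPM (SD, n = 3). *RHBDD1* had 26.8 ± 0.862 and 22.5 ± 3.00 CPM (SD, n = 3), and *RHBDL1* 5.83 ± 0.256 and 7.34 ± 3.90 CPM (SD, n = 3). *BSG* (320 and 323 CPM), *TMED2* (259 and 272.5 CPM) and *TMED10* (163 and 185 CPM), of which the last 2 are cargo receptors of the early secretory pathway, were the most abundant modifiers by CPM, each given with control siRNA first.

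Among 61 genes for membrane proteins that sheddases are known to cut, 47 were tested, with 22 positive and 25 negative log2 fold changes and a median of -0.02. The 2 with the highest CPM were *ALCAM*, an adhesion molecule (604 ± 32.8 and 645 ± 87.0 CPM, SD, n = 3), and *APLP2*, of the amyloid precursor family (491 ± 29.4 and 439.6 ± 47.7 CPM, SD, n = 3). In edgeR 0 had an adjusted p under 0.05, and 7 had an unadjusted p under 0.05, against 9.26% of all genes tested. When replicate numbers were a block in edgeR, the Notch ligand gene *DLL4* was higher, and *NCAM1*, *NRG1*, *TNFRSF1A*, *DCC* and *PTPRK* were lower.

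*DLL4* had 144, 171 and 193 counts with control siRNA against 245, 300 and 211 with siKIFC1 #2, without overlap between the groups. Its log2 fold change was 0.69 (adjusted p = 0.130 in edgeR), with an adjusted p of 0.00216 with the block and of up to 0.447 over the alternatives. The neural adhesion gene *NCAM1*, a neuroendocrine marker whose 3′ UTR holds 1 copy of GAGATCT, had 227, 240.5 and 262 CPM with control siRNA and 162, 188 and 195 CPM with siKIFC1 #2. Its log2 fold change was -0.42 (adjusted p = 0.137 in edgeR, 0.000646 with the block and up to 0.592 over the alternatives). *NRG1*, a growth factor of the EGF family, had 40.0, 36.1 and 42.1 CPM with control siRNA and 29.4, 24.4 and 30.6 CPM with siKIFC1 #2. Its log2 fold change was -0.49 (adjusted p = 0.132 in edgeR, 0.00200 with the block and up to 0.604). *TNFRSF1A*, the type 1 receptor of tumor necrosis factor, had 54.0, 50.3 and 52.2 CPM with control siRNA and 39.1, 41.4 and 29.8 CPM with siKIFC1 #2. Its log2 fold change was -0.50 (adjusted p = 0.140 in edgeR, 0.00183 with the block and up to 0.493). In all 4 genes the groups did not overlap. The same held for 5 lower and 4 higher of the 47 tested substrates, these 4 included, and for 15.5% of all genes tested. *DLL4*, *NCAM1* and *NRG1* passed in edgeR when siKIFC1 #2 replicate 3 was left out, with adjusted p of 0.00987, 0.0198 and 0.0196. Leaving out that library also raised the calls over all genes, to the most of any single omission, as given below.

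For *DCC* and *PTPRK* the groups overlapped. *DCC*, a netrin receptor gene with 1 copy of GAGATCT in its 3′ UTR, had 277, 216 and 349 counts with control siRNA against 182, 139 and 238 with siKIFC1 #2 (adjusted p = 0.436 in edgeR, 0.0195 with the block and up to 1.00). *PTPRK*, a receptor tyrosine phosphatase gene, had 22, 91 and 161 counts with control siRNA against 12, 9 and 69 with siKIFC1 #2, with wide differences between replicates (adjusted p = 0.754 in edgeR, 0.0259 with the block and up to 1.00).

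**Figure D5:**
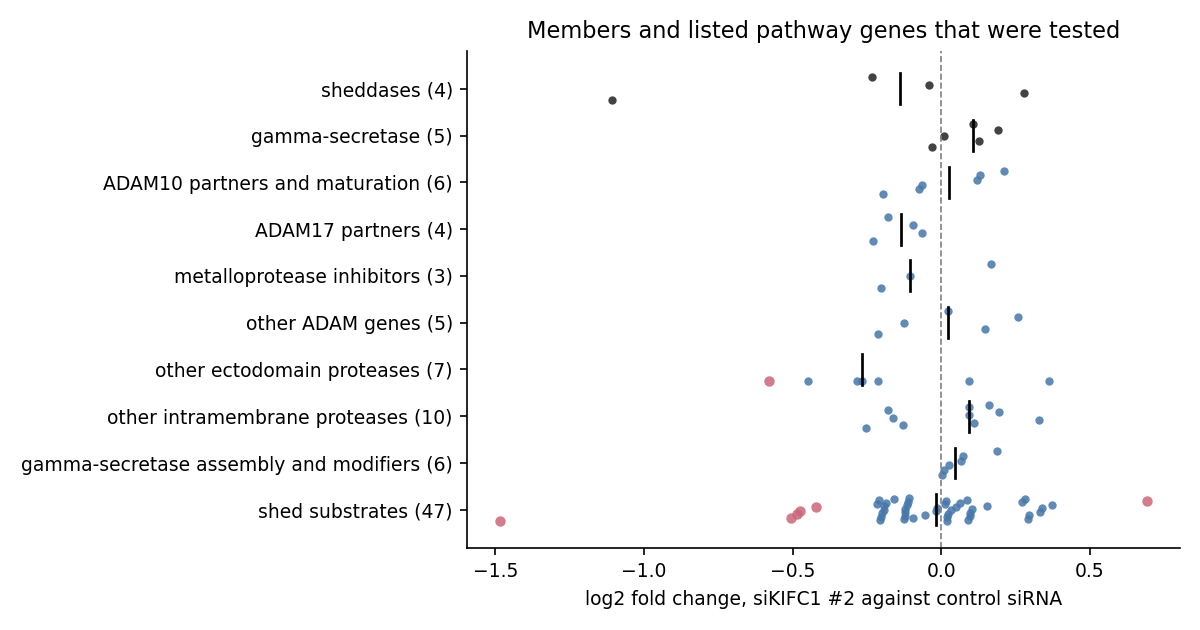
Log2 fold change of siKIFC1 #2 against control siRNA for the members (black) and the tested genes of the 8 lists (blue, with red for an adjusted p under 0.05 when the replicate number is a block); vertical bars are list medians and numbers in brackets the genes tested. The members spread from -1.11 for *ADAM10* to 0.28 for *ADAM15*, and 7 listed genes are red, from -1.49 for *PTPRK* to 0.69 for *DLL4*.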

How the data were processed

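RNA was sequenced from 3 control siRNA and 3 siKIFC1 #2 libraries of H146 cells. The authors aligned reads to GRCh38 with HISAT2 2.2.1, counted them per gene with featureCounts 2.0.8 and deposited raw counts by NCBI gene ID. The annotation is not given in the sources used here. Of 28395 IDs, 27745 matched a RefSeq symbol (GRCh38.p14).

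The test was the robust quasi-likelihood fit of edgeR 4.0.16 (R 4.3.3) on counts scaled by TMM, after filterByExpr with *KIFC1* kept, with Benjamini-Hochberg adjustment over 14777 genes. Intervals are 95% from the fit. The script was tested on simulated data. DESeq2, the tool of the study (1.42.0 was used here), and limma 3.58.1 were alternatives. Figures used matplotlib 3.10.9. The biological coefficient of variation was 13.1%, and p-values measure the spread between these biological replicates. The labels give replicate numbers and do not say whether these pair the libraries. With group means removed, same-numbered libraries correlated at 0.436, 0.352 and 0.420 over 12897 genes, and others at -0.375 to -0.0463. The main fit leaves replicate numbers out, and its intervals and adjusted p do not use any pairing. The fit with the block includes them.

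Members and lists were chosen with earlier results of these data known. Named genes are the members, the targeted gene, the 5 most like *ADAM10*, and in each list those with an adjusted p under 0.05 (block included), the 2 highest in CPM and the 2 largest changes at a mean log2 CPM of at least 2. Listed genes with GAGATCT in the 3′ UTR are named as well. Lengths and 3′ UTRs are of GENCODE 44. Other gamma-secretase genes were not analysed here.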

Additional observations from a re-analysis of the deposited data

How the results depend on the processing

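*ADAM10* kept a negative log2 fold change under all 13 alternatives, from -1.23 without siKIFC1 #2 replicate 3 to -1.03 without siKIFC1 #2 replicate 2. Of the 8 other members, *ADAM17*, *APH1A* and *PSENEN* changed sign in 2, 1 and 5 of the 13 alternatives, with estimates near 0. With 1 library left out, 0 to 1 of the 8 were called higher. The call was *ADAM15* without siKIFC1 #2 replicate 3. Over all genes, 48 were higher and 55 lower, which became 121 and 144 without the filter on low counts, 126 and 148 with DESeq2, 407 and 454 with the replicate number as a block, and 9 to 194 higher and 15 to 274 lower with 1 library left out, highest without siKIFC1 #2 replicate 3. Listed genes called went from 0 higher and 0 lower to 1 and 2 without the filter, 1 and 3 with DESeq2, 1 and 6 with the block, and 0 to 1 and 0 to 3 with 1 library left out. The block changed no call among the 8 other members, where its lowest adjusted p in edgeR were 0.121 for *ADAM15* and 0.161 for *ADAM9*. The standard errors of these log2 fold changes were 0.098 and 0.098 with the block, against 0.134 and 0.163 without it. The causes of these differences were not tested.

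With the union of annotated exons as the length, control levels were 37.0 CPM per kilobase for *APH1A*, 31.4 for *PSENEN*, 12.3 for *APH1B*, 8.83 for *ADAM15*, 4.88 for *NCSTN*, 4.64 for *ADAM10*, 2.78 for *ADAM17*, 2.56 for *ADAM9* and 1.97 for *PSEN2*. All are lower because that length is longer. When any annotated 3′ UTR of a gene counted, 3 of the 9 members held GAGATCT instead of 1, against 14.4% of all genes, and 4 held GCAACC, a word linked with higher genes in the same earlier scan, instead of 0, against 34.9% of all genes.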

Other observations

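Of the 114 listed genes, 26 were too low to be tested, with at most 23 counts in any library (*AXL* in siKIFC1 #2 replicate 2). The genes in this paragraph were chosen after their values were seen. Among inhibitors of ADAM10 and ADAM17, *TIMP3* had 1, 2 and 7 counts with control siRNA against 0, 3 and 3 with siKIFC1 #2, and *RECK* had at most 3 counts in any library. The ADAM10 partners *TSPAN5* and *TSPAN10* had at most 4 and 8 counts. Among EGF receptor ligands released by sheddases, *BTC*, *EGF* and *EREG* had at most 3 counts in any library and *AREG* had 0 in all 6, whereas *HBEGF* had 86, 81 and 88 counts with control siRNA against 59, 76 and 82 with siKIFC1 #2. *SFRP1* and *VCAM1* also had 0 counts in all 6 libraries. For *AREG*, *SFRP1* and *VCAM1* this allows a level of up to 0.169 to 0.195 CPM per library, without TMM scaling (3 counts, for counting error only). *MICA* and *MICB* were listed at 0 in all 6 libraries too, but 97.3% and 100% of the 32-base words of their transcripts also occur on alternate sequences of GRCh38, and whether reads that map to several places were counted is not given in the sources used here, so a 0 sets no limit on their level.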
